A study of Mus musculus with 9 samples.

Results

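The genes described here are 10 heat shock proteins and chaperones: Hspa1a, Hspa1b, Hsph1, Dnajb1, Hspb1, Hspa5, Hspa8, Hsp90aa1, Hspd1 and Hspe1. They were taken by name from the 18193 genes that had a probe set with a single gene symbol, and they were read by 25 of the 34945 such probe sets. Their levels were measured in cells of the thymus of female C57BL/6J mice, 6 to 8 weeks old, on 9 Affymetrix arrays. The labels name the measured material both as stromal cells lacking CD45 and, where they speak of pooling, as thymic "ECs". That abbreviation is not explained, so which stromal cells were meant is not known here. Of these, 3 arrays came from mice that were not irradiated, 3 from mice at day 4 and 3 from mice at day 7 after SL-TBI, which is usually read as sublethal total body irradiation. The irradiated mice received 550 cGy from a cesium source, and they were given no hematopoietic cells afterwards. In all groups, cells carrying CD45, the surface protein of white blood cells, were depleted with magnetic beads, and each sample combined several mice. Whether the 3 samples of a group were independent pools is not stated, so p-values measure the spread between these samples, which may be technical.

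Chaperones help proteins to fold and keep unfolded chains from clumping. In heat or other stress, the transcription factor HSF1 binds repeats of the motif nGAAn, called heat shock elements, and raises the transcription of the inducible HSP70 genes and their helpers. The endoplasmic reticulum (ER) and the mitochondrion have chaperones of their own, and those of the ER are governed by a separate pathway, the unfolded protein response. In the thymus, irradiation is known to deplete dividing thymocytes, which later return.

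Each promoter shown has a match, in the printed stretch, to a motif by which such genes are known to be grouped. Hspd1 also had such a match but is not printed, and its window with the match shares 285 bases with that of Hspe1. RefSeq (GRCm38.p6) gave promoter windows of 300 bases for 8 of the 10 members, and Hspa8 and Hsp90aa1 had no entry in the table used here. Each line gives the 150 bases before a start site, 5′ to 3′ on the strand of the gene. Capitals mark a pair of heat shock units, GAANNTTC or TTCNNGAA, and in Hspa5 the ER stress element, which is CCAAT followed after 9 bases of any kind by CCACG.
Hspa1a, chr17:34972157-34972306, minus strand: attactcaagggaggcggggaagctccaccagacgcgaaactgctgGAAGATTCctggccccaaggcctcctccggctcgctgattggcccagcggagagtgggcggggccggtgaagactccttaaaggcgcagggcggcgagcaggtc
Hspa1b, chr17:34959239-34959388, minus strand: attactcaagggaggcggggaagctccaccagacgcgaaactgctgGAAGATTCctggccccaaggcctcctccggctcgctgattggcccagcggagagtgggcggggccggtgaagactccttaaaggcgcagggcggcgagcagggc
Hsph1, chr5:149636337-149636486, minus strand: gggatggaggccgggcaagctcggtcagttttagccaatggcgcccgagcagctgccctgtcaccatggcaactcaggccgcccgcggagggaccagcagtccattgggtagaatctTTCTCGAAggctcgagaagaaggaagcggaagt
Hspb1, chr5:135887769-135887918, plus strand: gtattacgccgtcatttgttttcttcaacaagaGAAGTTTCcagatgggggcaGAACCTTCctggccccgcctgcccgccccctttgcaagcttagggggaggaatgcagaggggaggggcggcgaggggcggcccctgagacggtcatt
Hspe1, chr1:55087998-55088147, plus strand: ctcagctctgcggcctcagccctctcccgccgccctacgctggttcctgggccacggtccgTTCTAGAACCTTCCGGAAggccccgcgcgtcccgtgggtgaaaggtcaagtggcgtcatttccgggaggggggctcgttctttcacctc
Hspa5, chr2:34771940-34772089, plus strand: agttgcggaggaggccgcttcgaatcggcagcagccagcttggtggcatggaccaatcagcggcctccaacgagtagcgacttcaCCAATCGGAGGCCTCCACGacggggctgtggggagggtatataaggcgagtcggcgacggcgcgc

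Over the whole 300-base windows, searched on both strands, a pair of heat shock units was found in 7 of the 11 windows of the members, against 15.1% of all 32851 windows. These 7 windows belong to 6 of the 8 members, and some genes have more than 1 window. They are not separate sequences, because the Hsph1 windows overlap each other, as do 1 of Hspd1 and that of Hspe1. Those of Hspa1a and Hspa1b are near-identical. The difference from the share of all windows was not tested. Neither window of Dnajb1 held a pair or the ER stress element, and the Hspa5 window held no pair. Both pair motifs are their own reverse complements, and they overlap where units follow each other. A run of 3 units, in which GAANNTTC and TTCNNGAA overlap by a shared unit in either order, stood in windows of Hsph1, Hspe1 and Hspd1 and in 0.603% of all windows. In Hsph1 the run lay after the start site, outside the printed stretch, and in Hspe1 and Hspd1 2 such runs overlapped. Hspd1 and Hspe1 are neighbours transcribed in opposite directions, and 1 of the Hspd1 windows shared 285 bases with that of Hspe1, including these 2 runs. The ER stress element stood at -65 to -47 from the Hspa5 start and in 0.119% of all windows. The windows of Hspa1a and Hspa1b differed at 4 of 300 positions. A match is a run of letters and was not tested for binding.

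At day 4, 8 of the 10 members fell and 0 rose, where 21.4% of all genes tested fell and 41.8% rose. By day 7, 9 of the 10 were higher than at day 4, as were 9.78% of all genes. Against untreated, day 7 called 2 of the 10, Hspb1 higher and Hsph1 lower, where 54.1% of all genes were called. All 10 members passed the filter on dim genes, which kept those reaching 4 on the log2 scale on 3 or more arrays. The test was limma's moderated test with Benjamini-Hochberg adjustment over all 10937 genes that passed that filter, and values below are log2 values of the brightest probe set of each gene. In a bulk sample, fewer cells of a type and less RNA per cell cannot be told apart.

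**Figure D1:**
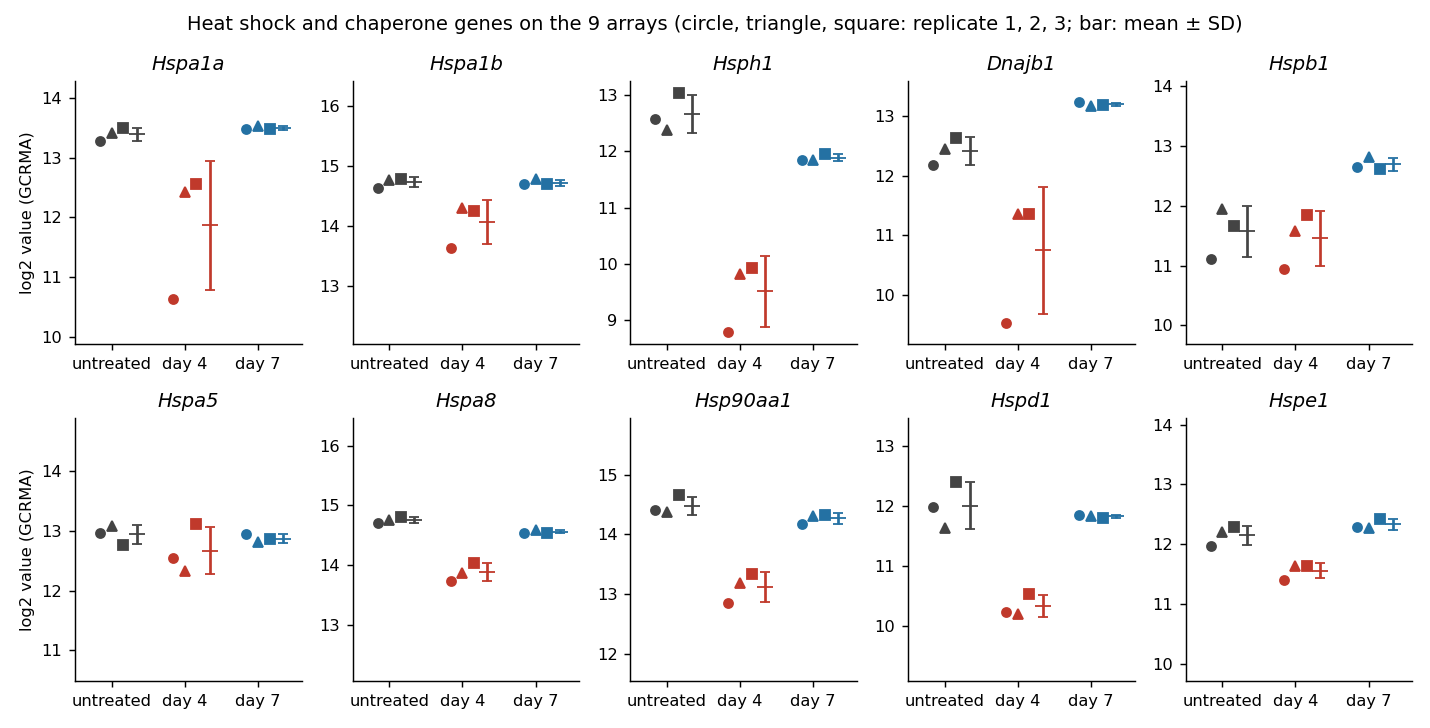
Log2 value of each of the 10 members on the 9 arrays, by group, with the group mean and SD as a bar beside the points; every panel spans at least 4.4 log2 units. The day 4 arrays lie below the other groups in 8 panels, and day 4 replicate 1 (circle) is far below the other day 4 arrays for Hspa1a and Dnajb1.

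The stress-inducible cytosolic HSP70 proteins are made by Hspa1a and Hspa1b, near-identical neighbours on chromosome 17. Hspa1a read 13.28, 13.41 and 13.49 on the untreated arrays, 10.63, 12.43 and 12.56 at day 4, and 13.47, 13.53 and 13.48 at day 7. The day 4 arrays were all below the others, with replicate 1 far below its group. Hspa1a was 2.87-fold lower at day 4 than in untreated (difference -1.52, SE 0.42, adjusted p 0.012) and 3.07-fold higher at day 7 than at day 4 (1.62, SE 0.42, adjusted p 0.023). Without the filter on dim genes neither call held (adjusted p 0.052 and 0.088). Without day 4 replicate 1 these differences were -0.90 (adjusted p 0.00029) and 1.0 (adjusted p 0.001). The rise of Hspa1a to day 7 lost its call without any of the day 7 arrays (adjusted p 0.058 to 0.07).

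Hspa1b read 14.64, 14.77 and 14.79 in untreated, 13.63, 14.29 and 14.24 at day 4, and 14.70, 14.78 and 14.70 at day 7. Its day 4 values again lay below both other groups, which overlapped. It fell 1.60-fold (difference -0.68, SE 0.16, adjusted p 0.0057) and rose 1.59-fold to day 7 (0.67, SE 0.16, adjusted p 0.017). That rise lost its call without day 7 replicate 2 (0.64, adjusted p 0.06) and without the filter on dim genes (adjusted p 0.055). Whether these probe sets separate the transcripts of the near-identical copies was not tested. Against untreated, the day 7 difference was 0.10 for Hspa1a (95% confidence interval -0.86 to 1.06) and -0.01 for Hspa1b (-0.38 to 0.36).

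Hsph1 and Dnajb1 encode partners of HSP70: HSP110, which helps it to exchange its nucleotide, and an HSP40 with a J domain, which stimulates its ATPase. Hsph1 read 12.57, 12.38 and 13.04 in untreated, 8.78, 9.82 and 9.92 at day 4, and 11.85, 11.85 and 11.96 at day 7. This was the largest fall among the members and the groups did not overlap in any comparison. Hsph1 was 8.94-fold lower at day 4 (difference -3.16, SE 0.29, adjusted p 2.4e-05) and then 5.21-fold higher at day 7 (2.38, SE 0.29, adjusted p 8e-04). It remained 1.71-fold below untreated at day 7 (-0.78, SE 0.29, adjusted p 0.046). That last call was lost without untreated replicate 1 or 3, day 4 replicate 2 or any day 7 array (adjusted p 0.051 to 0.14), without the filter on dim genes (0.13), with the mean of its probe sets (-0.61, 0.12) and after quantile normalization (0.051).

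Dnajb1 read 12.17, 12.45 and 12.62 in untreated, 9.53, 11.36 and 11.36 at day 4, and 13.23, 13.17 and 13.18 at day 7. The 3 groups did not overlap, and day 7 was the highest. Dnajb1 fell 3.16-fold (difference -1.66, SE 0.42, adjusted p 0.0079; -1.05 and adjusted p 0.00049 without day 4 replicate 1). It rose 5.43-fold from day 4 to day 7 (2.44, SE 0.42, adjusted p 0.0042; 1.83 and adjusted p 0.00017 without day 4 replicate 1). Day 7 against untreated gave 0.78 (95% confidence interval -0.18 to 1.74, adjusted p 0.15), and this difference was called without day 4 replicate 1 (adjusted p 0.0015) and with only the arrays of those 2 groups in the fit (adjusted p 0.0037).

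Hspb1, a small heat shock protein that holds unfolded chains without using ATP, had no called fall at day 4. It read 11.11, 11.95 and 11.66 in untreated, 10.95, 11.57 and 11.85 at day 4, and 12.65, 12.82 and 12.61 at day 7. Untreated and day 4 overlapped, and every day 7 array was higher than both. The day 4 difference was -0.12 (95% confidence interval -0.69 to 0.46, adjusted p 0.71) and turned to 0.14 without day 4 replicate 1 and to 0.07 without untreated replicate 2. It was -0.35 without untreated replicate 1 (adjusted p 0.25) and -0.41 with arrays centred on the list of epithelial genes (adjusted p 0.19). The interval leaves room for a fall of moderate size. At day 7 Hspb1 was 2.17-fold above untreated (1.12, SE 0.26, adjusted p 0.0056) and 2.35-fold above day 4 (1.24, SE 0.26, adjusted p 0.0088).

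The abundant cytosolic chaperones are Hspa8, the housekeeping HSP70 that also uncoats clathrin vesicles, and Hsp90aa1, the stress-inducible HSP90 that matures kinases and steroid receptors. Both fell at day 4. Hspa8 read 14.70, 14.75 and 14.80 in untreated, 13.74, 13.87 and 14.04 at day 4, and 14.54, 14.59 and 14.53 at day 7. Hsp90aa1 read 14.41, 14.38 and 14.65 in untreated, 12.85, 13.18 and 13.34 at day 4, and 14.17, 14.31 and 14.33 at day 7. For both genes the day 7 arrays lay between the others and overlapped neither. Hspa8 fell 1.83-fold (difference -0.87, SE 0.09, adjusted p 6.1e-05) and Hsp90aa1 2.56-fold (-1.36, SE 0.14, adjusted p 4.4e-05). From day 4 to day 7 they rose 1.59-fold (0.67, adjusted p 0.0015) and 2.22-fold (1.15, adjusted p 0.00074). Day 7 against untreated gave -0.20 for Hspa8 (95% confidence interval -0.41 to 0.01, adjusted p 0.1) and -0.21 for Hsp90aa1 (-0.52 to 0.10, adjusted p 0.22). Hspa8 was called lower at day 7 with the mean of its probe sets (-0.43, adjusted p 0.026), with an intensity trend (0.04), after quantile normalization (0.045) and with arrays centred on the list of epithelial genes (-0.46, adjusted p 0.009). That centring also called Hsp90aa1 lower (-0.47, adjusted p 0.035).

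Hspd1 and Hspe1 encode HSP60 and its lid HSP10, which together fold proteins in the mitochondrial matrix. Hspd1 read 11.98, 11.64 and 12.41 in untreated, 10.24, 10.20 and 10.54 at day 4, and 11.85, 11.84 and 11.80 at day 7. Hspe1 read 11.97, 12.20 and 12.29 in untreated, 11.40, 11.63 and 11.64 at day 4, and 12.28, 12.27 and 12.43 at day 7. In both, day 4 lay below the other groups, which overlapped. Hspd1 fell 3.21-fold (-1.68, SE 0.18, adjusted p 6.2e-05; 95% confidence interval -2.09 to -1.27) and Hspe1 fell 1.51-fold (-0.60, SE 0.11, adjusted p 0.0016; -0.85 to -0.34). The difference between the falls of these neighbours was not tested. To day 7 they rose 2.84-fold (1.5, adjusted p 0.00076) and 1.70-fold (0.77, adjusted p 0.002). Against untreated, day 7 gave -0.18 (adjusted p 0.43) and 0.17 (adjusted p 0.22), and Hspe1 was called higher there with array weights (0.30, adjusted p 0.023).

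Hspa5 encodes BiP, the HSP70 of the ER, and showed no called change. It read 12.97, 13.08 and 12.76 in untreated, 12.55, 12.33 and 13.11 at day 4, and 12.95, 12.81 and 12.87 at day 7. The groups overlapped in every comparison, and day 4 replicate 3 was the highest array of all. The day 4 difference was -0.27 (95% confidence interval -0.69 to 0.15, adjusted p 0.23), day 7 against day 4 gave 0.21 (-0.21 to 0.62, adjusted p 0.43) and day 7 against untreated -0.06 (-0.48 to 0.36, adjusted p 0.8). Without day 4 replicate 3 the first was called lower (-0.49, adjusted p 0.011) and the second higher (0.43, adjusted p 0.045), and without day 4 replicate 2 they were -0.10 and 0.04. The first was also called with array weights (-0.36, adjusted p 0.045) and with arrays centred on the epithelial genes (-0.57, adjusted p 0.031).

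Read against all genes tested, the 8 members that fell at day 4 compare with 21.4% of genes called lower (63.2% called in either direction). The median of the members was -1.11 against 0.20 over all genes tested. From day 4 to day 7, 9 of 10 members were called higher against 9.78% of all genes (27.3% in either direction, 17.6% lower), with a median of 1.19 against -0.10. The groups did not overlap for 8 members between day 4 and untreated (67.7% of all genes) and for 9 between day 7 and day 4 (51.7%). Day 7 against untreated called 1 member higher and 1 lower, where 32.1% and 22.0% of all genes were called (54.1% together), and 5 of 10 did not overlap against 62.4%. The members' median there was -0.04 against 0.09. The comparisons share arrays, so a low day 4 value enters the fall and the rise alike.

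These shares of all genes depend on the scaling, and the members' counts at day 4 and from day 4 to day 7 did so by at most 1 under the scalings tried. At day 4, 4574 genes were higher and 2342 lower, and centring each array on the thymic epithelium list gave 2767 and 3846, with 9 members lower. For day 7 against untreated the split was 3509 to 2406 and 1963 to 4109 after that centring, with 1 member higher and 3 lower. For day 7 against day 4 it was 1070 to 1921, 1192 to 1397 after quantile normalization and 1349 to 1492 after centring on the tested genes, with 9 members higher under each.

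The other probe sets of these genes moved the same way at day 4, with unequal sizes. Of the 25 probe sets 23 passed the filter, and the remaining pair, 1441827_x_at and 1433251_at of Hsp90aa1, lay below 4 on all arrays. Fitted each on its own, 18 of 23 fell and 0 rose at day 4 (22.9% of all 17819 probe sets tested were called lower, 38.5% higher and 61.4% in all). Those not called were the 3 of Hspa5 and the 2 of Hspb1. Between day 4 and day 7, 20 of 23 rose (9.87% of all probe sets, 14.5% lower and 24.3% in all), all but those of Hspa5. Day 7 against untreated called 2 higher, both of Hspb1 (30.1% of all), and 2 lower, 1425993_a_at of Hsph1 and 1431182_at of Hspa8 (22.4%, and 52.5% in all).

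The probe sets of a gene lay farthest apart for Hspa8 and Dnajb1. For Hspa8, 3 probe sets gave day 4 differences of -0.87, -1.12 and -0.99, and 1431182_at gave -3.91 (SE 0.36, adjusted p 2.8e-05). That probe set read 13.01, 12.29 and 13.11 in untreated, 8.00, 9.24 and 9.45 at day 4, and 11.77, 11.64 and 11.60 at day 7. Its 3 groups did not overlap, and its day 7 arrays were 1.13 below untreated (difference -1.13, adjusted p 0.026). Which Hspa8 transcript it reads was not examined. For Dnajb1, 1416756_at gave -3.0 at day 4 and 3.37 from day 4 to day 7, against -1.66 and 2.44 for the brighter 1416755_at. The 3 probe sets of Hspa1b gave -0.68, -0.85 and -1.08, the smallest from the brightest, and the 3 bright ones of Hsp90aa1 -1.36, -1.27 and -1.74.

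**Figure D2:**
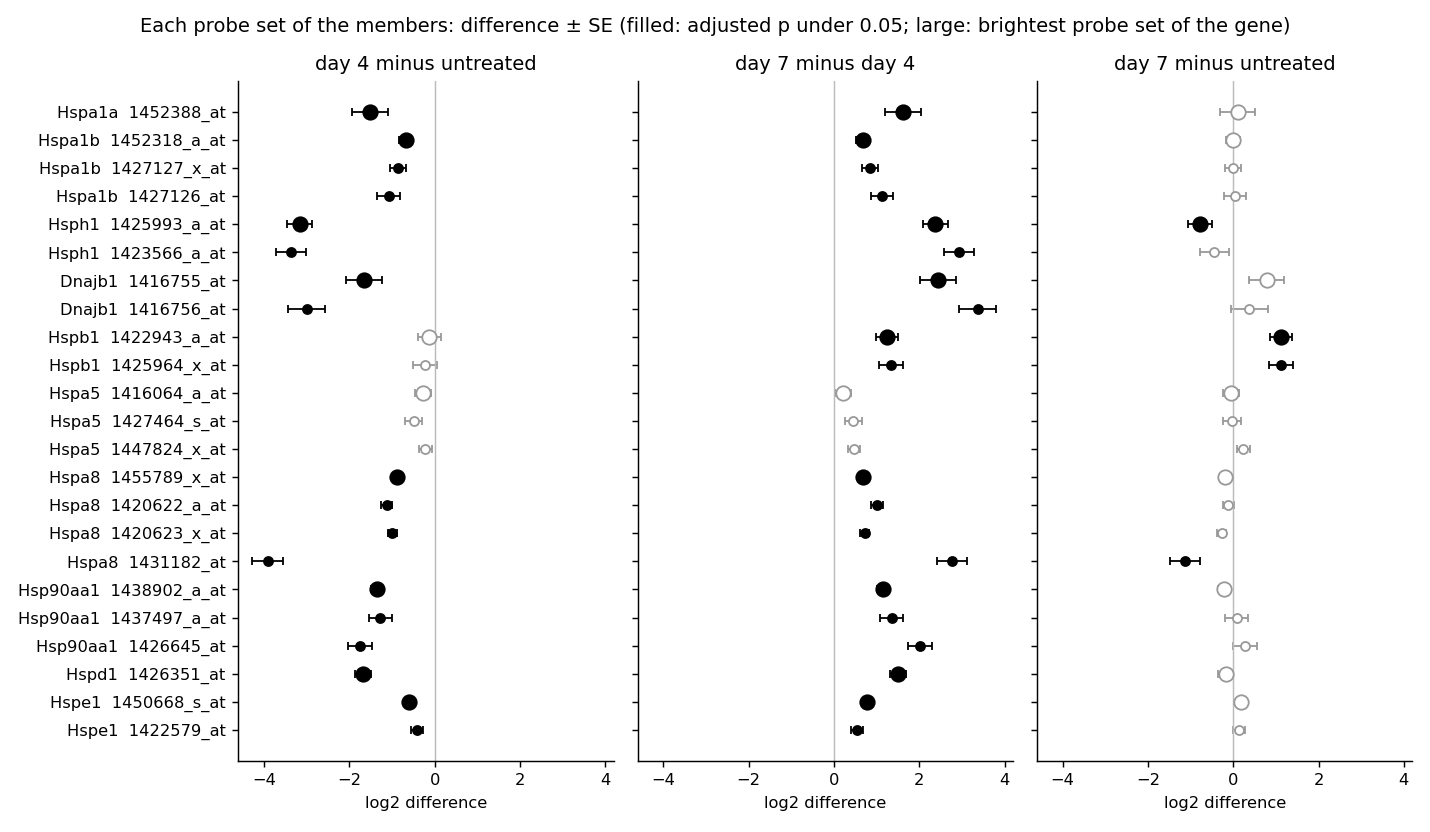
Difference in log2 value with its SE for each of the 23 tested probe sets of the members, by comparison; filled points have an adjusted p under 0.05 and large points are the brightest probe set of a gene. At day 4, 18 probe sets lie left of 0 as filled points, the lowest being 1431182_at of Hspa8 at -3.91, and from day 4 to day 7, 20 lie right of 0.

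Within groups, the members were tightest at day 7, with SDs of 0.03 to 0.11, against 0.05 to 0.43 in untreated and 0.13 to 1.08 at day 4. Day 4 replicate 1 was the lowest array of its group for 8 of 10 members, and for 26.6% of all genes tested. Its gap to the mean of the other day 4 arrays was -1.86 for Hspa1a, -1.83 for Dnajb1, -1.09 for Hsph1, -0.76 for Hspb1 and -0.63 for Hspa1b. For the other members the gap ran from -0.41 for Hsp90aa1 to -0.12 for Hspd1. Across the 9 arrays, which share their groups, Pearson correlations between pairs of members other than Hspa5 ran from 0.37 to 0.99 with a median of 0.89, and Hspa5 correlated with the others at 0.32 to 0.57.

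The genes most like the mean of Hspa1a, Hspa1b, Hsph1 and Dnajb1 over the 9 arrays, members aside, were Dusp1 and Jun (Pearson r 0.985 each), Gxylt1 (0.962), Nr4a3 (0.961) and Egr2 (0.959). Dusp1, a phosphatase of MAP kinases, read 10.79, 11.36 and 11.44 in untreated, 8.63, 9.81 and 9.88 at day 4, and 11.25, 11.54 and 11.15 at day 7. Jun, a subunit of the AP-1 transcription factor, read 12.34, 12.21 and 12.83, then 10, 11.26 and 11.57, then 12.67, 12.69 and 12.79. Both had their lowest value on day 4 replicate 1, as the heat shock genes did. They were picked by correlation over these same arrays, so a shared lowest array largely follows from the choice. Most like Hspa5 were Manf, an ER stress-inducible secreted protein (0.972), Spcs3, a subunit of the signal peptidase of the ER (0.912), Ap1s2 (0.903), Chrnb1 (0.886) and Tpt1 (0.879). Manf read 9.94, 9.45 and 10.74 at day 4, with replicate 3 highest, which its choice by correlation with Hspa5 favours. None of the 5 genes most like Hspa5 was called in any comparison.

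Immediate early transcripts moved with the inducible members. Their list holds Dusp1, Jun, Nr4a3 and Egr2, already named for their likeness to these members, so it is not a separate observation. Of 17 genes on that list, 13 fell at day 4 and 0 rose, where 21.4% and 41.8% of all genes did. All 17 were higher at day 7 than at day 4, as were 9.78% of all genes. The list mean was 9.15 to 9.85 on the untreated arrays, 7.39, 8.27 and 8.33 at day 4 and 9.67 to 9.95 at day 7. Fos read 12.52, 13.16 and 13.37 in untreated, 11.14 on day 4 replicate 1 and 12.53 and 12.62 on the other day 4 arrays. Its day 4 difference was not called (-0.92, adjusted p 0.056). The part of the immediate early response in the heat shock values was not tested.

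Thymocyte and cell division transcripts were also lowest at day 4, with larger differences, but unlike most members they stayed below untreated at day 7. All 15 tested thymocyte genes fell at day 4, as did 21.4% of all genes. The list mean was then 3.28 to 3.56, against 8.91 to 9.36 in untreated and 6.4 to 6.51 at day 7. At day 4, 10 of the 15 were below 4 on every array. Ptprc, the gene of CD45, was 11.96 to 12.45 in untreated, 4.18 to 5.22 at day 4 and 9.26 to 9.64 at day 7. The dividing cell list was 8.72 to 9.35, 4.53 to 4.74 and 7.38 to 7.59 in that order, and all 13 of its tested genes fell at day 4. At day 7 all 15 and all 13 were still called lower than untreated, as were 22.0% of all genes and 1 of 10 members. The part of these cells in the members' values was not tested.

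Erythroid transcripts also had their lowest values at day 4: the list mean was 7.64 to 9.13 in untreated, 3.69 to 3.96 at day 4 and 5.59 to 5.88 at day 7. All 3 tested erythroid genes fell at day 4 and rose to day 7 (21.4% and 9.78% of all genes did so). Of 6 neutrophil genes 5 fell at day 4, and 0 rose and 2 fell from there to day 7 (9.78% and 17.6% of all genes). The thymic epithelium list was 11.86 to 12.00 in untreated, 12.17 to 12.28 at day 4 and 12.14 to 12.23 at day 7. The separate medullary epithelium list was 6.56 to 7.86, 6.52 to 7.00 and 5.73 to 5.89 in that order. Of its 7 tested genes 2 fell and 0 rose at day 4 (21.4% and 41.8% of all genes). All 7 were lower at day 7 than untreated, where 22.0% of all genes were. The fibroblast list was 9.99 to 10.50, 11.05 to 11.59 and 10.81 to 11.14, and the endothelial list 4.48 to 6.08, 5.50 to 6.27 and 7.64 to 7.79. Of 11 tested endothelial genes 6 rose and 0 fell at day 4, where 41.8% and 21.4% of all genes did. Pecam1 was below 4 on every day 4 array and at 2.84 on untreated replicate 2. Its day 4 difference was not called (-1.11, adjusted p 0.081). RNA quality was read from the Actb controls, whose 3-prime minus 5-prime value was 2.16 to 2.45 in untreated, 3.01 to 3.32 at day 4 and 2.3 to 2.71 at day 7. The Gapdh controls gave 0.80 to 1.04, 1.13 to 1.61 and 0.68 to 1.1 in that order, so the day 4 arrays were the highest by both. The part of RNA quality or of these cells in the members' values was not tested.

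**Figure D3:**
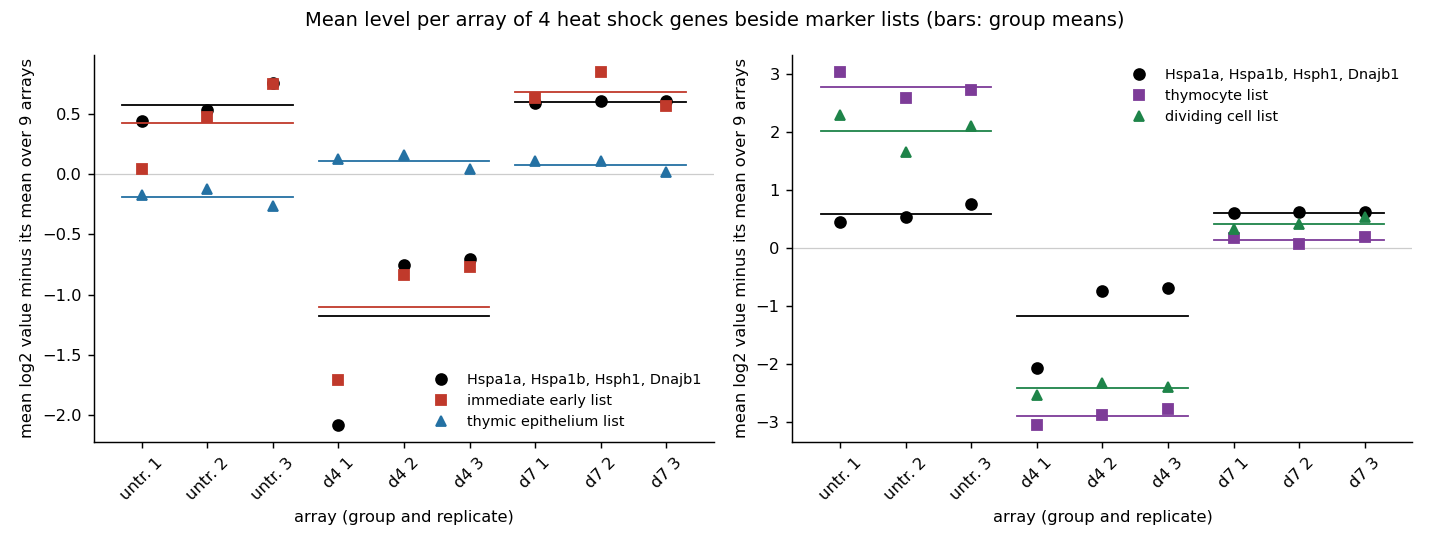
Mean log2 value per array of Hspa1a, Hspa1b, Hsph1 and Dnajb1, centred on its mean over the 9 arrays, beside the immediate early and thymic epithelium lists (left) and the thymocyte and dividing cell lists (right, wider axis); bars are group means. The heat shock mean was -2.08 on day 4 replicate 1 and -0.75 and -0.70 on the other day 4 arrays, and the immediate early list is also lowest on that array.

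The wider chaperone families did not fall together at day 4. Of 126 other genes in 8 lists, some in more than 1, 121 had a probe set and 113 were tested: 34 rose and 27 fell, which is 30.1% and 23.9% against 41.8% and 21.4% of all genes. Their median difference was 0.05, against 0.20 over all genes tested. From day 4 to day 7, 19 rose and 7 fell, which is 16.8% and 6.19% against 9.78% and 17.6% of all genes. Between untreated and day 7, 28 rose and 15 fell, which is 24.8% and 13.3% against 32.1% and 22.0%.

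**Figure D4:**
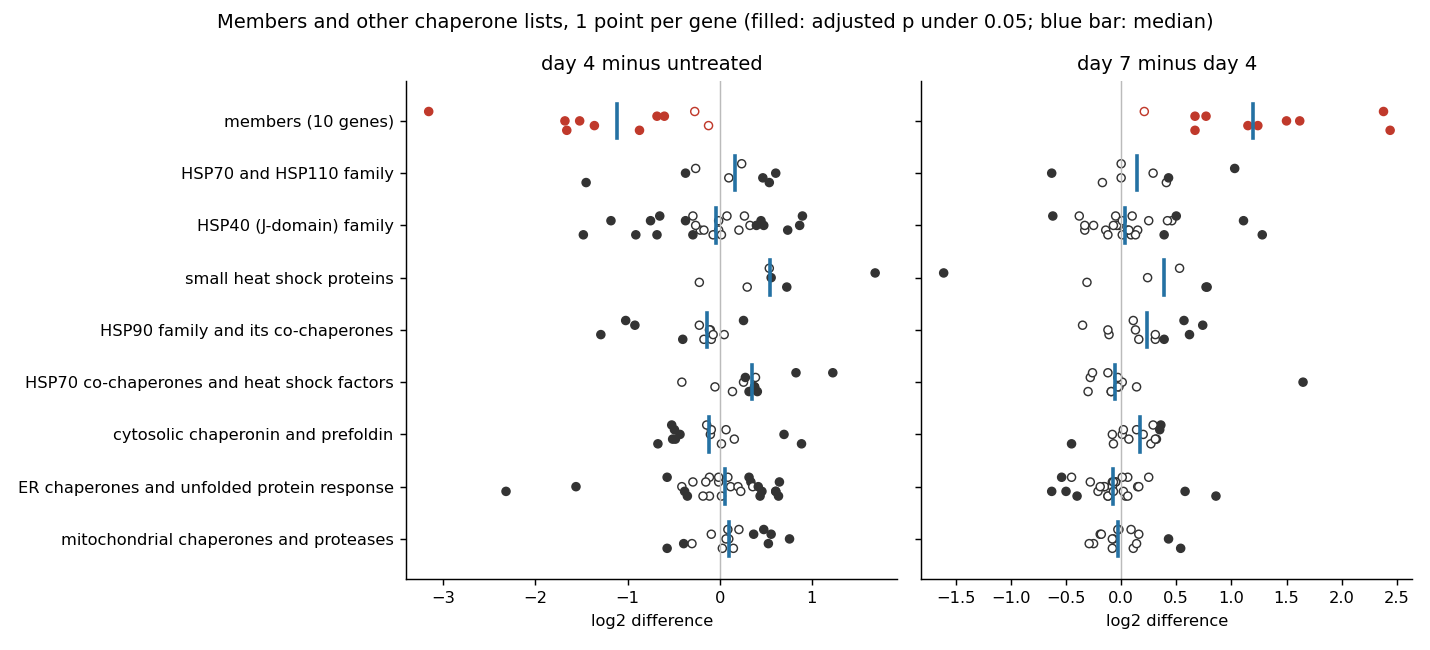
Log2 difference of the 10 members (red) and of the tested genes of 8 other chaperone lists, 1 point per gene, filled where the adjusted p was under 0.05, with the median of each list as a blue bar. The members' medians stand at -1.11 for day 4 minus untreated and 1.19 for day 7 minus day 4, while the medians of the other lists run from -0.14 to 0.55 and from -0.07 to 0.39.

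Of the remaining HSP70 and HSP110 genes, 8 of 10 were tested. At day 4, 3 rose and 2 fell (37.5% and 25%, against 41.8% and 21.4% of all genes). After centring on the epithelial list 0 rose and 3 fell, and without _x_at and _s_at probe sets 1 rose and 2 fell. Hspa4l, an HSP110 relative of Hsph1, read 7.64, 7.70 and 7.95 in untreated, 5.97, 6.68 and 6.28 at day 4 and 6.88, 6.55 and 6.73 at day 7. It fell at day 4 (-1.45, adjusted p 0.00014) and was still lower at day 7 (-1.05, adjusted p 0.0013). Hspa9, the mitochondrial HSP70, gave 0.10 at day 4 (adjusted p 0.42) and was higher at day 7 than untreated (0.53, adjusted p 0.0021), and Hspa2, known for its role in spermatogenesis, was higher at day 7 (0.77, adjusted p 0.00077). In the HSP40 list, 6 of 26 rose and 8 fell at day 4 (23.1% and 30.8%, against 41.8% and 21.4% of all genes). Dnaja1, a farnesylated HSP40 of the cytosol, had the course of the members: 11.77, 11.93 and 12.18, then 10.40, 10.48 and 10.56, then 11.75, 11.94 and 11.59 (-1.48, adjusted p 2e-05, and 1.28 to day 7, adjusted p 3e-04). Dnajc9, a histone chaperone, fell at day 4 (-0.91, adjusted p 3.5e-05) and Dnajb2 rose (0.87, adjusted p 0.00017).

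Among HSP90 and its co-chaperones, 4 of 12 fell and 1 rose at day 4 (33.3% and 8.33%, against 21.4% and 41.8% of all genes). From day 4 to day 7, 4 rose and 0 fell, where 9.78% and 17.6% of all genes did. Hsp90ab1, Ptges3 and Ppid had no single-symbol probe set. Chordc1 fell by 1.02 on the log2 scale (difference -1.02, adjusted p 7.3e-06), Stip1, the adaptor between HSP70 and HSP90, by 0.92 (-0.92, adjusted p 0.00041) and Fkbp5, a glucocorticoid-induced partner of steroid receptors, by 1.29 (-1.29, adjusted p 9.6e-05). To day 7 they rose again by 0.57, 0.74 and 0.62. The 4 rises to day 7 became 2 without day 4 replicate 1, without day 7 replicate 1 or without day 7 replicate 2. With array weights 6 rose and 1 fell to day 7. The day 4 count became 10 of 12 after centring on the epithelial list. In the list of HSP70 co-chaperones and heat shock factors, 7 of 12 rose (58.3%, against 41.8% of all genes), 0 fell and 5 did not pass at day 4 (4 rose without day 4 replicate 3, 3 after centring on the tested genes, and 2 rose and 1 fell after centring on the epithelial list). The heat shock factor tested, Hsf2, named after its values were seen, gave -0.41 (adjusted p 0.095). Hsf1 had no single-symbol probe set, so its level was not read here, and Hsf4 lay below 4 on every array. Sil1 and Bag5, which release nucleotide from HSP70 proteins, rose by 1.23 and 0.83. Bag3, an HSF1 target that links HSP70 to small heat shock proteins, gave 0.26 at day 4 (adjusted p 0.47) and was higher at day 7 than untreated by 1.91 (adjusted p 0.00082), as Hspb1 was.

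Of 6 tested small heat shock genes 3 rose (50%, against 41.8% of all genes) and 0 fell at day 4 (21.4% of all genes). Hspb8, a partner of Bag3, read 8.67 ± 0.31 in untreated, 9.40 ± 0.15 at day 4 and 10.17 ± 0.06 at day 7 (SD, n = 3), and day 7 was 1.5 above untreated (adjusted p 9.6e-05). Hspb2 was at least 1.26-fold higher at day 4 and at least 1.49-fold at day 7, bounds computed from the level of 4 because it lay below 4 on all untreated arrays. Hspb3 was below 4 in untreated and at day 7 and at least 1.60-fold higher at day 4. With a detection level of 6, 3 of these genes were tested and 1 was called at day 4, and with array weights 4 rose and 1 fell.

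The cytosolic chaperonin and prefoldin list had 6 of 14 lower and 2 higher at day 4 (42.9% and 14.3%, against 21.4% and 41.8% of all genes). Cct2 was at -0.67, Cct6a at -0.52 and Pfdn5 at 0.89. From day 4 to day 7, 3 were called higher and 1 lower (21.4% and 7.14%, against 9.78% and 17.6% of all genes). This count of 4 became 1 without day 7 replicate 2 and 2 without day 7 replicate 3. It became 7 (6 higher) after centring on the tested genes and 8 (7 higher) with array weights. Of 28 ER genes 9 rose and 5 fell at day 4 (32.1% and 17.9%, against 41.8% and 21.4% of all genes). This count of 14 became 9 without day 4 replicate 1. The largest rise was Ern1, named after its values were seen, at 0.65 (adjusted p 8e-04). The largest falls were Edem1, which helps to clear misfolded glycoproteins, at -2.32 (adjusted p 7.6e-06) and Eif2ak3, the ER stress kinase PERK, at -1.56 (adjusted p 0.00012), and both were still lower at day 7 (-1.73 and -1.41). Atf4, the transcription factor downstream of PERK, was lower at day 4 (-0.35, adjusted p 0.023) and higher at day 7 than untreated (0.50, adjusted p 0.0055). Between untreated and day 7, 8 ER genes were called, where 54.1% of all genes were. This count became 5 without untreated replicate 1, 4 without day 7 replicate 1 or 3 and 13 with array weights. Between day 4 and day 7, 6 ER genes were called, where 27.3% of all genes were, and 3 without day 7 replicate 2 or 3.

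Of 15 mitochondrial chaperone and protease genes, 5 rose and 2 fell at day 4 (33.3% and 13.3%, against 41.8% and 21.4% of all genes). Hspd1 and Hspe1, which are not on this list, fell. The protease subunit Clpp rose by 0.76 (adjusted p 1e-04) and its unfoldase Clpx by 0.56 (adjusted p 0.00066), and Oma1, a protease of the inner membrane, fell (-0.57, adjusted p 0.001) and was back at day 7 (-0.03 against untreated, adjusted p 0.83).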

How the data were processed

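One deposited table was used, with 1 log2 value per probe set and array (Affymetrix mouse arrays, 500 ng of RNA per sample). The authors made the log2 values with GCRMA, per the submitters' processing notes; its version is not given in the sources used here. Base 2 was read from the range of the values. Between 26.1% and 27.2% of values per array lay at the lowest value, 2.27. The table's 45101 probe sets were named through GEO's platform annotation, and 34741 of 34945 single-symbol probe sets matched RefSeq by gene identifier. The 932 with several symbols, the 9160 with none and 64 controls were left out. Each gene was read by its brightest probe set. All 9 arrays entered 1 limma 3.58.1 model (R 4.3.3, lmFit, eBayes) with group as the only term, Benjamini-Hochberg at 0.05, checked on simulated data. Precision is limited by the number of arrays. The members, gene lists and tests were chosen with earlier results of these data known. The 10 members are always named; from each chaperone list, the 3 genes with the smallest adjusted p of the F-test over groups; as genes of like pattern, the 5 with the highest correlation; from the marker lists, only the defining genes. Alternatives changed the filter, the probe set rule, the scaling, the variance model and the arrays used. No scanner files and no batch labels were used. Plots used matplotlib 3.10.9.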

Additional observations from a re-analysis of the deposited data

How the results depend on the processing

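Of 630 values of the members under an alternative, 586 kept their direction and their side of the threshold. Counts of all genes called were 10933 (day 4) and 9350 (day 7 against untreated) with every probe set on its own, where 17819 features were tested. Leaving out 1 array at a time, all genes called ranged from 6093 to 6976 at day 4, 4753 to 6159 for day 7 against untreated and 1760 to 3464 for day 7 against day 4, where 1905 were called without day 4 replicate 2 and 1760 without day 7 replicate 2. Members called ranged from 8 to 9, 1 to 3 and 7 to 10 in that order. Of 10 members, day 7 against untreated called 1 without the filter on dim genes and 4 after centring on the epithelial list. That centring moved the median of all genes from 0.196 to -0.102 at day 4 and from 0.089 to -0.175 at day 7, and centring on the tested genes moved the first to 0.089.

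Directions that turned belonged to differences not past the threshold, and the cause was not tested. For day 7 against untreated, averaging the probe sets of a gene gave 0.05 for Hsp90aa1, 0.01 for Hspa1b and 0.05 for Hspa5, centring on the epithelial list gave -0.16 for Hspa1a and -0.09 for Hspe1, and Hspa1b was 0.06 with array weights and 0.01 after quantile normalization. Leaving out 1 array at a time gave -0.05 to 0.02 for Hspa1b, -0.15 to 0.01 for Hspa5 and -0.37 to 0.02 for Hspd1. For day 4 against untreated, Hspb1 was 0.05 with array weights, and -0.35 to 0.14 with 1 array left out. Without the filter on dim genes the adjusted p of Hspa1a was 0.052 at day 4 and 0.088 from day 4 to day 7, and that of Hspa1b was 0.055 for the latter.

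Deviations of same-numbered arrays from their group means correlated at -0.12 to 0.18, and 3 of 9 pairs were over 0.1. For differently numbered arrays they correlated at -0.29 to 0.21, and 2 of 18 pairs were over 0.1. Whether the replicate numbers pair the arrays cannot be told from these values. With the replicate block, 6669, 5588 and 2614 genes were called at day 4, day 7 and day 7 against day 4, with 8, 2 and 9 members. Of 504 counts over the chaperone lists, 468 stayed within 1.5 times.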
